A study of Peromyscus maniculatus with 10 samples.

Results

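Isolated genes in gene-poor surroundings were selected from the annotation of the deer mouse, Peromyscus maniculatus, by position alone. A gene was taken as isolated when it lay on a numbered chromosome, spanned less than 100 kb, had at least 2 merged exons, and was separated from the next gene of the table by at least 300 kb on each side, with the first and last gene of every chromosome left out. These limits were met by 91 of the 25394 genes of the table (0.358%), and no expression value entered the choice. They were compared with the 16321 other genes of the numbered chromosomes with the same limits on span and exons.

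RNA was sequenced from primary fibroblasts grown out of ear tissue of 10 male BW deer mice aged 3 weeks, with 1 library per animal, and the labels give no treatment or other group. BW is an outbred stock that has been kept as a closed colony and goes back to wild-caught ancestors, so the animals are not inbred copies of each other, and animal, culture and library cannot be told apart. The libraries held 20811334 to 31912526 counts. Animals #36764 and #36789 stood apart from the rest, because they led 1080 of the 1350 genes (80.0%) at which a single library was outlying over the whole table, and the shares, medians and counts over all isolated genes (in use, level, variation, outlying animals, relation with the next gene) were computed again without them.

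Genes are not spread evenly along mammalian chromosomes. Gene-dense segments alternate with long stretches that hold few genes, often called gene deserts, and such stretches tend to be replicated late, to lie near the nuclear lamina and to carry repressed chromatin, while some deserts hold distant enhancers of the developmental genes beside them. Intergenic stretches are also where retrotransposed copies of messenger RNAs are often found, which typically lack the introns of their parent genes. None of these features was measured in the series, and no symbols were matched to the gene identifiers here, so the genes below are named by their position on the HU_Pman_2.1 build, and neither their function nor the fibroblast markers could be checked.

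The distance to the nearest gene and the number of genes around follow in part from the rule and are given as a description. The distance to the nearest gene ran from 301212 to 1398955 bases with a median of 436527 bases, and the stretch without any other gene around an isolated gene had a median length of 1203909 bases. Within 1 Mb on each side an isolated gene had a median of 4 other genes (interquartile range 3 to 8.5, range 0 to 41), whereas the other genes of the same limits had a median of 33 (interquartile range 19 to 55). The isolated genes were found on 22 chromosomes. Chromosome 2 held 9 of them, chromosomes 4 and 6 held 8 each, and chromosomes 1 and 15 held 7 each, whereas chromosome 22 held none. In 7 places an isolated gene had another isolated gene as its next neighbour.

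The isolated genes had a simpler structure than the others, which the rule did not use beyond its limits on span and exons. They had a median of 3 merged exons against 7 in the other genes, a median span of 3221 bases against 11994, and a median coding length of 861 bases against 1143. The exons took up 25% of the span at the median, compared with 9.73% in the others. Genes with 2 or 3 exons made up 59 of the 91 isolated genes (64.8%) and 22.4% of the others, and 55 isolated genes (60.4%) spanned less than 5 kb, compared with 28.3% of the others. In 13 isolated genes (14.3%) every annotated intron was shorter than 100 bases, compared with 2.85% of the others. At the other end stood 11 isolated genes with at least 10 exons, of which the gene at chr19:20253407-20344858 had the most, with 28. The 455 genes at 100 to 300 kb from their nearest gene had a median of 4 exons. Of these genes, 43.1% had 2 or 3 exons, 37.1% spanned less than 5 kb and 7.25% had only introns under 100 bases. These values lay between those of the isolated genes and of the others, whereas their median exonic share of 8.35% was below both. The plus strand carried 38 isolated genes (41.8%) and 49.9% of the others. Both next genes lay on the strand of the isolated gene in 27 cases (29.7%, compared with 27.0% of the others), 1 of them in 46 cases (50.5% and 47.3%) and neither in 18 (19.8% and 25.7%).

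Fewer of the isolated genes than of the others of the same limits were in use, where a gene is called in use when the mean of its counts over the 10 animals was 10 or more. In use were 47 of the 91 isolated genes (51.6%), compared with 10985 of the 16321 others (67.3%) and 13935 of the 25394 genes of the whole table (54.9%), which includes genes outside the limits on span and exons. No count in any animal was found for 19 isolated genes (20.9%), for 8.57% of the others and for 18.6% of the whole table, so that the isolated genes were near the whole table in both shares. The remaining 25 isolated genes had a low level, with a mean count of at most 7.2, of which 12 had a count in at least 5 animals and 3 in 1 animal. A mean of 100 or more counts was reached by 32 isolated genes (35.2%, compared with 55.3% of the others) and a mean of 1000 or more by 12 (13.2%, compared with 27.7%).

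The lower share was found in each animal on its own. A count of at least 10 was reached by 48.4% to 51.6% of the isolated genes per library (49.9% ± 1.29, SD, n = 10) and by 66.1% to 67.3% of the others (66.7% ± 0.359, SD, n = 10). The difference lay between -18.5 and -15.0 percentage points in the 10 animals, and the ranges did not overlap. The same genes were counted in every library, so that these SDs and ranges describe the libraries. They do not give the uncertainty of a share over so few isolated genes, and the difference was not tested. Counts were also scaled by library size (CPM). A count of 0 allowed a level of up to 0.144 CPM in the shallowest library and of up to 0.0109 CPM over the sum of all 10, so that lower levels were not detectable at this depth.

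The share of genes in use was highest among genes with a close neighbour. Of genes that did not overlap another gene, 74.7% were in use when the nearest gene lay within 10 kb, 58.7% when it lay 10 to 100 kb away, 54.3% at 100 to 300 kb and 51.6% in the isolated genes. Genes that overlapped another gene were in use in 64.2% of cases. Most of the difference thus lay between the 2 closest classes, and the isolated genes stood near the 455 genes at 100 to 300 kb. Of the 891 genes with at least 300 kb free on only 1 side, 511 (57.4%) were in use. Among the isolated genes, 20 of 37 with a nearest gene at 300 to 400 kb were in use (54.1%), 14 of 24 at 400 to 500 kb (58.3%) and 13 of 30 at 500 kb or more (43.3%). The genes just inside the limit were chr6:123734208-123736792, at 301212 bases from its nearest gene and with 15 to 34 counts per animal, and chr6:23020392-23022320, at 301264 bases and with 19 to 32 counts. Just outside lay chr11:20163882-20164717, at 296283 bases and with 0 to 5 counts, and chr21:32885387-32886393, at 293351 bases and with 8 to 19 counts.

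**Figure D1:**
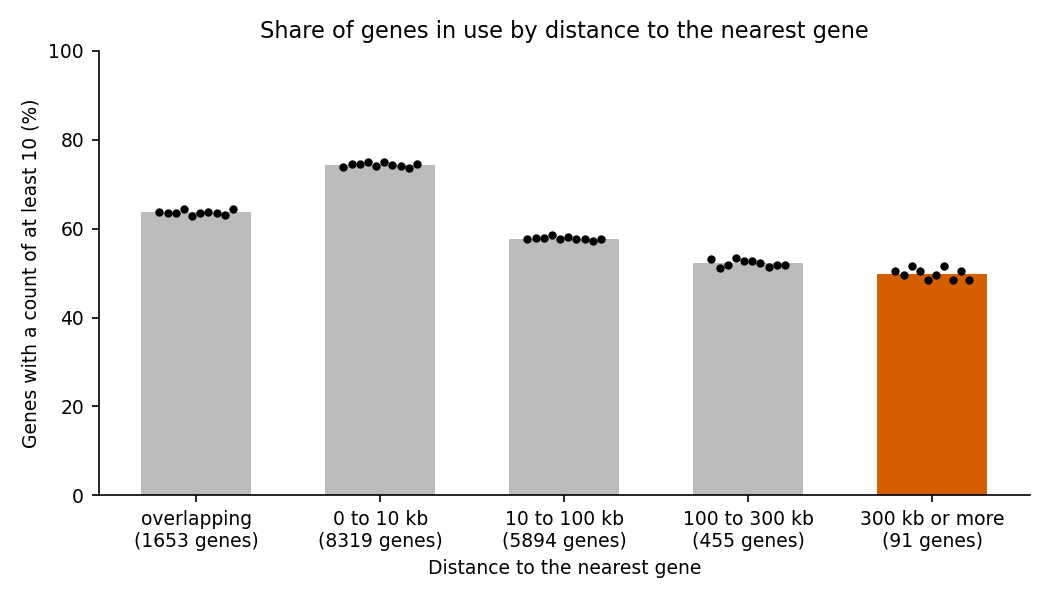
Share of genes with a count of at least 10 (percent, vertical axis) by distance to the nearest gene (horizontal axis), for genes with a span under 100 kb and at least 2 merged exons, with the isolated genes in orange. Each point is 1 of the 10 animals and each bar their mean. The isolated genes lie between 48.4% and 51.6%, close to the class at 100 to 300 kb and below the class within 10 kb in every animal.

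Exon number moved with the share in use, and the isolated genes differed from the others in exon number. Among genes with 2 or 3 exons, 28 of 59 isolated genes (47.5%) and 43.9% of the others were in use. In this class the isolated genes were thus not below the others at this limit. A mean of 100 or more counts was reached by 27.1% of them against 30.8%, and a mean of 1000 or more by 11.9% against 9.46%. No count was found for 23.7% against 21.3%, and the median log2 RPKM of those in use was 3.28 against 3.83. Among genes with 4 to 9 exons, 11 of 21 isolated genes (52.4%) were in use, compared with 67.6% of the others, and among those with at least 10 exons it was 8 of 11 (72.7%), compared with 81.6%. By span, 24 of 55 isolated genes under 5 kb (43.6%) were in use, compared with 50.2% of the others, and 23 of 36 longer ones (63.9%), compared with 74.0%. Of the 13 isolated genes with only short introns 3 were in use, compared with 127 of 465 others (27.3%). The part of exon number in the lower share of the isolated genes was not tested.

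**Figure D2:**
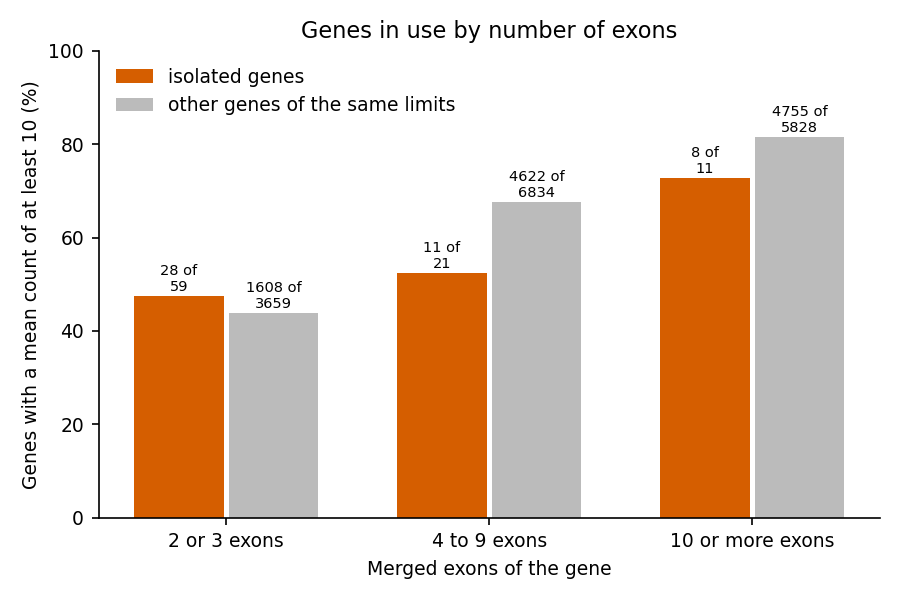
Share of genes with a mean of 10 or more counts (percent, vertical axis) by number of merged exons (horizontal axis), in the isolated genes (orange) and in the other genes of the same limits (grey), with the number of genes above each bar. The isolated genes are at 47.5% against 43.9% in the class of 2 or 3 exons and below the others in the classes with more exons.

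The nearest genes of the isolated genes were less often in use as well. Of the 182 flanking positions, 79 held a gene in use (43.4%), compared with 62.6% of those of the others, where a gene that flanks more than 1 gene counts at each. Among the isolated genes 13 of 30 were in use when neither flanking gene was (43.3%), 25 of 43 when 1 was (58.1%) and 9 of 18 when both were. In the others the share was 36.0% with neither flanking gene in use, 67.4% with 1 and 80.1% with both.

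The level of the isolated genes in use was compared per length, as RPKM, the CPM per kilobase of coding length. The median over the 47 genes of the mean log2 RPKM was 3.65, corresponding to 12.6 RPKM, compared with 4.27 or 19.3 RPKM in the other genes in use. Per animal the median ran from 3.27 in #36764 to 3.84 in #36798, and that of the others from 4.26 to 4.31. The 247 genes in use at 100 to 300 kb from a neighbour had a median of 3.66, the same as the isolated genes within their spread, and the isolated genes with a nearest gene at 300 to 400 kb, 400 to 500 kb and 500 kb or more had medians of 2.78, 4.46 and 3.69, in no order of distance. Against all others the difference in log2 RPKM was between -0.99 and -0.45, with the isolated genes lower in all 10 animals. Without #36764 and #36789 the medians were 3.72 and 4.29. The interquartile ranges over genes were 1.55 to 4.73 in the isolated genes and 2.51 to 5.65 in the others. They describe single genes, and the difference of the medians was not tested. In bulk RNA, fewer cells that use a gene and less RNA per cell cannot be told apart.

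A handful of genes held most of the RNA of the isolated genes. All 91 took 0.241% to 0.262% of the counts of a library, and the 6 with the highest RPKM took 70.1% of these. The highest was chr12:56112907-56115081 (ENSPEMG00000027253), a plus-strand gene of 3 exons with 1500 coding bases in a span of 2175. It had 574, 613 and 654 RPKM in the lowest, the median and the highest animal, and 19987 to 28967 counts. It alone made up 35.3% to 38.7% of the counts on isolated genes, and it was also one of their least variable genes. The next was chr21:48612009-48612588 (ENSPEMG00000027709), with 2 exons, a single intron of 31 bases and 549 coding bases. Its level ran from 329 RPKM in #36772 to 578 RPKM in #36787 with a median of 481, and neither of its flanking genes was in use.

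The other genes of high level were of various structures. The gene at chr23:18159539-18159945, with 2 exons and 279 coding bases, had 147, 229 and 295 RPKM in the lowest, the median and the highest animal. The gene at chr4:28888182-28904704, with 5 exons, had 165, 199 and 306 RPKM, and its highest values were those of #36764 (306 RPKM) and #36789 (271 RPKM), above the other 8 animals, which lay between 165 and 212 RPKM. Both of these genes lay between flanking genes that were not in use. The gene at chr14:7281132-7317003, with 13 exons, had 97.5, 123 and 137 RPKM, and the gene at chr2:53238393-53301007, with 17 exons, had 60.4, 78.1 and 85.5 RPKM. The latter lay 1391087 bases from its left and 510194 bases from its right neighbour. Both of these neighbours reached the limit of use, but at low median levels. The left one had a median of 0.199 RPKM (range 0 to 20.2, mean count 61). The right one had a median of 0.161 RPKM (range 0.0559 to 0.233, mean count 10.4). Both neighbours of the highest gene were in use, as was 1 of those of the gene on chromosome 14. Thus, 3 of the 6 highest genes were short with 2 or 3 exons, 1 had 5 exons and 2 were long with at least 13 exons.

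**Figure D3:**
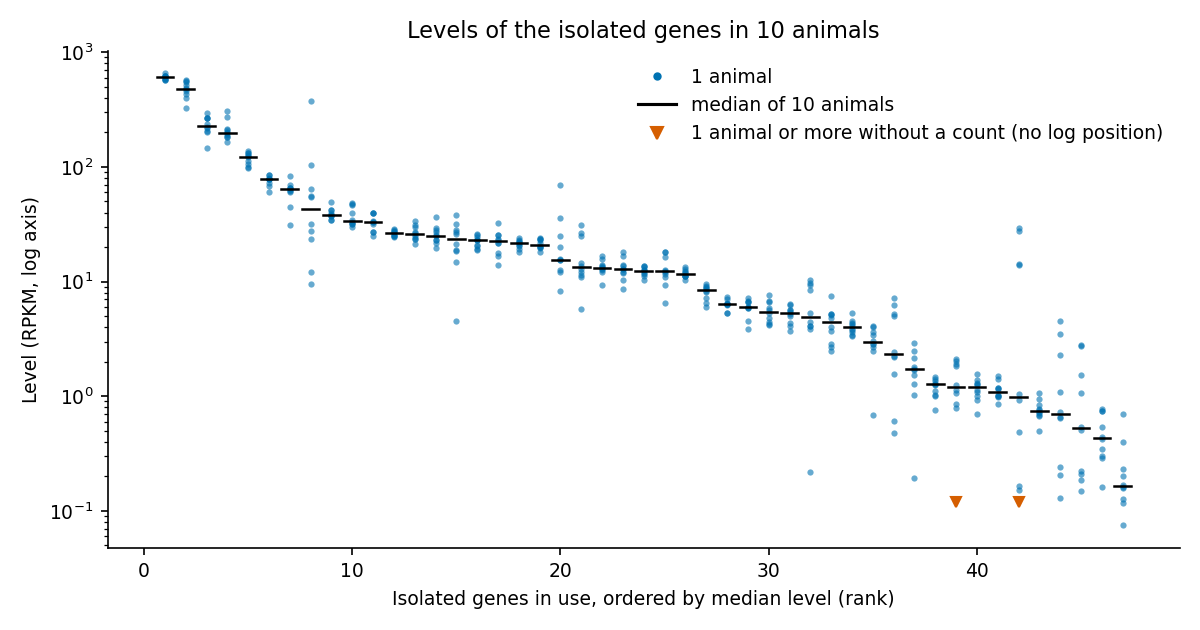
Levels of the 47 isolated genes in use (RPKM, log axis) ordered by median level (rank, horizontal axis), with a point for each of the 10 animals and a bar at their median. Triangles mark 2 genes with a count of 0 in an animal, which has no position on a log axis. The animals stay within a narrow band at the highest gene, whereas the eighth gene, on chromosome 15, spreads from 9.55 to 372 RPKM.

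The 11 isolated genes with at least 10 exons included 8 in use. Apart from the genes on chromosomes 14 and 2 described above, 4 had a moderate level. The gene at chr6:23855671-23876770 (12 exons) had 25, 33.2 and 39.8 RPKM in the lowest, the median and the highest animal, chr7:56547682-56593144 (21 exons) had 18.3, 21.7 and 23.9, chr19:20253407-20344858 (28 exons) had 10.2, 12.4 and 13.7, and chr15:69984726-70069722 (12 exons) had 5.30, 6.37 and 7.32. Their ranges kept this order without any overlap. The last 2 were near the limit of use, namely chr10:45603773-45696393 with 11 to 48 counts per animal and chr4:98427428-98439128 with 7 to 71 counts. The 3 not in use were chr21:66151466-66220523 (3 to 12 counts), chr2:140011019-140093134 (2 to 8 counts) and chr12:40668060-40708157 (0 or 1 count).

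The most remote genes ranged from nearly no counts to a moderate level. The gene farthest from any other, chr5:3716608-3721360, lay 1398955 bases from its left and 1441649 bases from its right neighbour and had 0 to 3 counts per animal. In contrast, chr9:72764983-72769652, with 1319461 bases on its left and 1900350 on its right, had 18.2, 20.9 and 23.8 RPKM in the lowest, the median and the highest animal, although neither flanking gene was in use. The gene at chr4:112577659-112583304, 1070347 bases from its nearest neighbour, had 9.32, 13.3 and 16.8 RPKM. Of the genes without any count, the farthest from a neighbour were chr4:75648614-75654286, at 699777 bases, and chr2:72357765-72366604, at 667846 bases.

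Variation between animals was somewhat larger at the median in the isolated genes than in all others, but not than in genes at 100 to 300 kb from a neighbour, and it depended on the level. The biological coefficient of variation (BCV), the spread between animals that edgeR estimates beyond counting error, had a median of 22.5% in the 47 isolated genes in use (interquartile range 17.6% to 46.1%) and of 17.9% in the others (12.9% to 30.3%). Within classes of mean count it was 46.5% against 39.8% at 10 to 100 (15 isolated genes), 21.2% against 18.6% at 100 to 1000 (20 isolated genes) and 16.4% against 13.1% at 1000 or more (12 isolated genes). The median of the isolated genes was thus higher in every class, and the difference was not tested. Without #36764 and #36789 the medians over all classes were 20.3% and 14.9%. A BCV over 50% was found in 10 isolated genes in use (21.3%) and in 10.7% of the others. Of these 10, 8 had their nearest gene at 300 to 400 kb, where 20 were in use (40%, median BCV 36.4%). At 400 to 500 kb it was 1 of 14 (7.14%, median 20.9%) and at 500 kb or more 1 of 13 (7.69%, median 22.5%). By exon number, 9 of the 10 had 2 or 3 exons, which was 32.1% of that class compared with 13.7% of the others. The genes at 100 to 300 kb had a median BCV of 26.1%, with 24.3% of them over 50%. By exon number the median was 25.5% in the isolated genes against 23.3% in the others at 2 or 3 exons, 20.6% against 18% at 4 to 9 exons and 15.7% against 16.2% at 10 or more. The animal with the highest RPKM was less than 2-fold above the lowest in 25 of the 47 genes (53.2%), compared with 64.7% of the others.

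The least variable isolated genes kept nearly the same level in all animals. The gene at chr12:56549192-56551716 had 24.4, 26.5 and 28.5 RPKM in the lowest, the median and the highest animal and a BCV of 10.6%. It is the next gene to chr12:56112907-56115081, which came second with 11.2%, and 434110 bases without a gene separate them. The gene with 21 exons on chromosome 7 followed with 12.1%. No relation was detected between the levels of the 2 genes on chromosome 12 across the animals (Pearson's R = -0.111, Spearman's rho = -0.127, permutation p of R adjusted over all neighbouring pairs 0.900, n = 10), although R was -0.570 without #36746 and #36905.

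The most variable isolated genes with a mean of 100 or more counts differed strongly between animals. The gene at chr15:14798951-14799622, with 3 annotated exons parted by gaps of at most 4 bases and 666 coding bases, had 9.55, 43.0 and 372 RPKM in the lowest, the median and the highest animal and a BCV of 96.0%. Its counts ran from 198 in #36907 to 7091 in #36764. Animal #36764 was over 3-fold above the next highest, #36746 with 104 RPKM, and the remaining 8 animals lay between 9.55 and 63.5 RPKM. The gene at chr6:52164254-52228857 had 0.479, 2.34 and 7.18 RPKM and a BCV of 74.6%, and here #36789 and #36787 were lowest and #36798 highest. The gene at chr14:35348680-35375361 had 8.35, 15.6 and 69.1 RPKM and a BCV of 59.2%, with #36789 highest and #36764 next at 36.1 RPKM, and without these 2 animals its range was 8.35 to 24.8 RPKM.

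**Figure D4:**
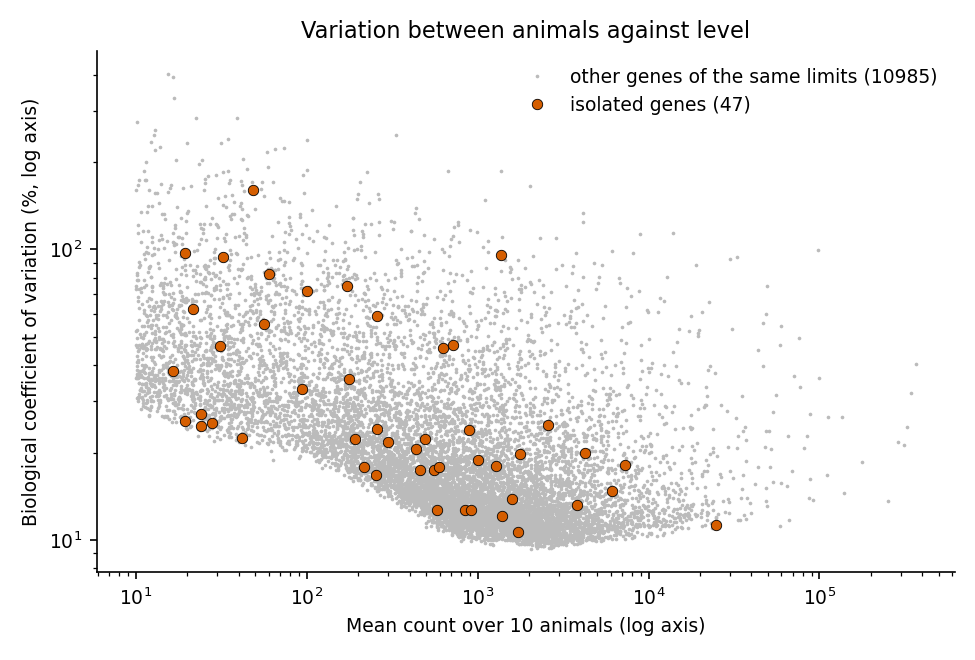
Biological coefficient of variation between animals (percent, log axis) against the mean count over 10 animals (log axis), for the 47 isolated genes in use (orange) and the 10985 other genes in use of the same limits (grey). The isolated genes lie within the cloud of the others, from 10.6% to 160%, and 10 of them are above 50%.

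The gene with the largest BCV of all isolated genes, 160%, lay below that minimum and was chosen after its values were seen. The gene at chr1:62261428-62262252, with 2 exons and 210 coding bases, had 178, 126, 90 and 78 counts in #36787, #36789, #36798 and #36772 and 0 to 6 counts in the other 6 animals. Its levels fell into separate sets, of 14 to 29.4 RPKM and of 0 to 1.05 RPKM, with no animal between them. With a median count of 5.5 it reached the limit of use only through the higher set. How many genes of the table have such a split was not counted. The genes chr1:52164404-52168720 (BCV 97.1%, 2 to 63 counts) and chr9:38450822-38453016 (94.1%, 4 to 89 counts), chosen likewise, were lower, at 0.131 to 4.53 and 0.148 to 2.78 RPKM.

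At 5 of the 47 isolated genes in use (10.6%), 1 animal was outlying by Dixon's 95% critical value on log2 CPM. Over all 13935 genes in use the share was 9.69%, so that the isolated genes were near the background. All 5 animals were low ones, whereas 653 of the 1350 outlying libraries over all genes (48.4%) were high, and each of the 5 genes was led by a different animal. Animals #36764 and #36789 led 2 of them, and with these animals left out 3 of the 47 genes were called (6.38%, compared with 4.82% of the others).

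The low animals were clearly separated from the rest at the upper 2 of these genes. At chr11:17066470-17072199 animal #36905 had 0 counts, and the other 9 had 34 to 104 with a median of 65. At equal depth the others were at least 19.3-fold higher at the median, with a floor of 3 counts in that library. At chr11:66662912-66664991 animal #36797 had 4 counts and the others 66 to 164 with a median of 96, a 24.4-fold difference in CPM. At chr4:107715690-107723066 animal #36789 had 5 counts and the others 31 to 107, a 9.03-fold difference. At chr5:44428553-44442084 animal #36764 had 144 counts and the others 362 to 1296, a 5.78-fold difference. At chr4:24905977-24906481 animal #36787 had 4 counts and the others 13 to 24, a 4.43-fold difference. Only the gene on chromosome 5 had a mean count above 100, and at the other 4 the low animal had at most 5 counts. Only uniquely mapped reads were counted, and whether a sequence difference between animals moved reads away from these genes was not tested.

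Levels of isolated genes were then compared with those of their next genes across the animals. A pair could be formed where both genes were in use, which gave 40 pairs of 34 isolated genes, 3 of them between 2 isolated genes. The median Pearson's R over the 40 pairs was 0.159 (interquartile range -0.277 to 0.326) and the median Spearman's rho was 0.121. A positive R was found in 27 pairs (67.5%), in 54.7% of other neighbours at least 300 kb apart and in 60.4% of all other neighbouring pairs. Other neighbours at least 300 kb apart (214 pairs) had a median R of 0.041 and a median rho of 0.079, and all 9627 other neighbouring pairs had a median R of 0.145 and a median rho of 0.115. Coordination, defined by the study as the correlation, over all transcripts, of the R values of 2 genes, had a median of 0.145 in the isolated pairs, 0.041 in the other distant pairs and 0.186 in all other pairs. The interquartile ranges of the 3 sets, which describe single pairs and not the medians, overlapped throughout. The medians of the isolated pairs depended on single animals and on the filter: without #36798 R was 0.075 and coordination 0.05, without #36746 R was 0.102, without #36764 and #36789 R was 0.161 and coordination 0.241, and with a mean of 100 or more counts (20 pairs) R was 0.286 and coordination 0.542. Medians of other pairs were not computed with animals left out or with the higher filter, so that these values have no background beside them. All of these medians share the same 10 libraries and are given without a test.

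A single isolated pair passed the test of R, which was permuted 100000 times per pair and adjusted by Benjamini-Hochberg over all 9667 neighbouring pairs in use. It was 1 of 40 (background 4.99% of all pairs), and at an unadjusted permutation p under 0.05 it was 7 of 40 (background 20.1%), so that the isolated pairs were not above the background. The pair was the variable gene on chromosome 15 described above with chr15:14311191-14469420, which lies 329530 bases to its left. The flanking gene ranged from 51.7 to 195 RPKM with a median of 64.6 and was highest in #36764, as was the isolated gene. Pearson's R was 0.927, Spearman's rho 0.927 and coordination 0.972, with an adjusted permutation p of 0.00777 for R and 0.0270 for rho (n = 10). Without #36764 and #36907, the 2 animals farthest from the median, R was 0.843.

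The remaining pairs at both ends did not pass the adjusted test. The gene at chr5:12334995-12337681 had an R of 0.834 and a rho of 0.636 with chr5:12936706-12939090 (adjusted permutation p of R 0.0540, n = 10), with both genes highest in #36907, and R was 0.715 without #36764 and #36907. The lowest R was found for the remote gene chr4:112577659-112583304 with chr4:111370637-111403906, at -0.742 with a rho of -0.600 (adjusted permutation p of R 0.114, n = 10), and it was -0.442 without #36764 and #36907. For chr17:3947863-3950531 and chr17:3485308-3493933 R was -0.690 and rho -0.697 (adjusted permutation p of R 0.190, n = 10), and R was -0.366 without #36746 and #36789.

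**Figure D5:**
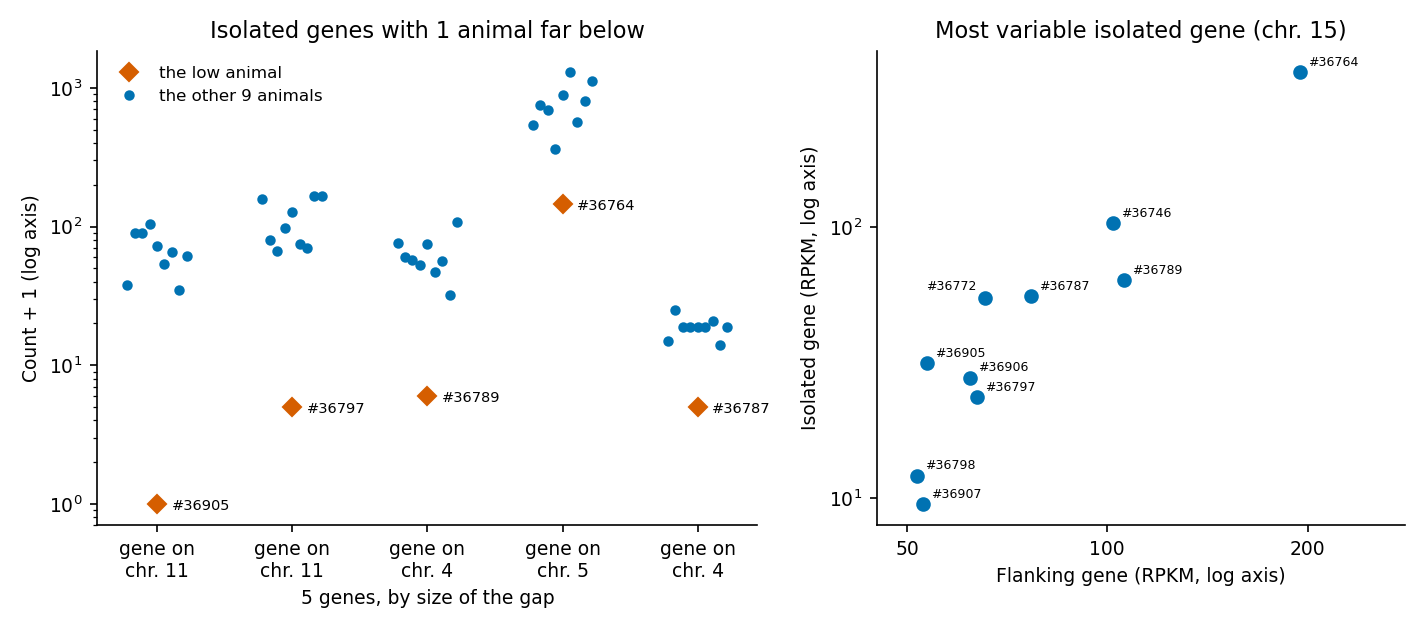
Left, counts plus 1 (log axis) at the 5 isolated genes with 1 animal far below the others, with the low animal as an orange diamond and the other 9 animals as blue points. Right, level of the isolated gene on chromosome 15 (RPKM, log axis) against that of its flanking gene (RPKM, log axis), with a point per animal. The low animal has 0 to 144 counts at the left, and at the right #36764 is highest for both genes with 372 and 195 RPKM.

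Among themselves, the 47 isolated genes in use were not more closely related in level than other genes were. Over their 1081 pairs the median size of R was 0.273, compared with 0.327 over the pairs of the other genes in use, and the median size of coordination was 0.411 compared with 0.474. Coordination reached a size of 0.5 in 39.3% of the pairs of isolated genes and in 47.2% of the pairs of the others. Positive R values made up 53.7% of the pairs of isolated genes and 50.1% of those of the others. The isolated genes in use had a lower median of the mean count, 437 against 721 in the others. The pairs were not matched on this count, and its part in the differences was not tested.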

How the data were processed

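The authors prepared directional libraries, aligned read pairs with STAR 2.7.2b to HU_Pman_2.1, kept unique reads and deposited raw gene counts made with featureCounts (Subread 1.5.3, option for pairs, no strand option in the header) on Ensembl release 98. Trim Galore 0.4.5 and SAMtools 1.5 are named in the submitters' processing notes. Every column was mapped to its animal, and 0 columns had no sample. Gene bounds were the lowest start and highest end. Lengths were taken as coding length, being multiples of 3 in 95.6% of the isolated genes, 93.5% of the others of the same limits and 86.0% of the table. Of the 37364 genes of the RefSeq table of HU_Pman_BW_mat_3.1, 0 matched an identifier. Counts were scaled by TMM and given as RPKM with no prior count or as log2 CPM and log2 RPKM with a prior count of 2, and BCV was fitted with edgeR 4.0.16 (R 4.3.3) on the 13935 genes with a mean of 10 or more counts. Dixon's critical value for 10 animals was 0.466. DESeq2 1.42.0 size factors, other limits and filters, and omitted animals were alternatives. The code was tested on simulated data, where the estimated BCV came out somewhat above the simulated one, so that absolute BCV values may be too high. Intervals and floors cover counting error only, reads have no molecular identifiers, and near-identical copies are uncertain in unique reads. Named were the highest, the most and least variable, outlying, farthest and limit genes and the pairs with extreme R. The members, lists and rules were chosen with earlier results of these data known. The rule for the members itself used only position, span and exon number.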

Additional observations from a re-analysis of the deposited data

Results flagged for a closer look

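At 5 isolated genes the lowest of the 10 animals was separated from the next by a gap that took up more of the whole range of log2 CPM than Dixon's 95% critical value for 10 values allows. Chance gives such a gap in about 1 in 20 groups, and 9.69% of all genes in use had one. The gap took up 0.753 of the range at chr11:17066470-17072199 (#36905 low), 0.722 at chr11:66662912-66664991 (#36797), 0.689 at chr4:24905977-24906481 (#36787), 0.589 at chr4:107715690-107723066 (#36789) and 0.557 at chr5:44428553-44442084 (#36764).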

How the results depend on the processing

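Of 45 alternatives to the 6 main results, other than omitting single animals, 28 left the value within its spread and 17 did not. The spread was the SD between libraries for the level and, with a count of at least 10 per library, for the share. For BCV, R and coordination it was the jackknife standard error from omitting each animal in turn. For the number of outlying genes the limit was 1.5 times. The share in use (51.6%) became 43.3% with a limit of 500 kb (13 of 30 genes), 35.2% with a mean of 100 or more counts, 79.1% with a count in any library and 45.1% with a mean of 1 CPM or more. The median log2 RPKM (3.65, against 4.27 in the others) became 4.07 (against 4.27) with a limit of 200 kb. It became 4.43 (against 4.73) with a mean of 100 or more counts and 1.37 (against 3.18) without a filter. The isolated genes were thus lower in each case, by less in the former 2 and by more without a filter. The median BCV (22.5%, against 17.9% in the others) became 18.4% (against 15.5%) with a mean of 100 or more counts. It became 31.6% (against 25.1%) without a filter, and the SD of log2 CPM in its place gave 18.9% (against 14.7%). The number of outlying genes (5) became 8 of 93 at 200 kb, 0 of 13 at 500 kb, 3 of 47 without #36764 and #36789, 1 of 32 with a mean of 100 or more counts and 9 of 72 without a filter. Its share, 10.6% against 9.68% in the others, was below theirs at 200 kb (8.60% against 9.69%), at 500 kb, with a mean of 100 or more counts (3.13% against 9.08%) and without a filter (12.5% against 13.8%). With a mean of 100 or more counts the median R (0.159) became 0.286 and the median coordination (0.145) 0.542, over 20 pairs. Neither value was computed for other pairs at this limit. Omitting each animal gave a share of 51.6% throughout, 3.62 to 3.71 log2 RPKM, a BCV of 21.3% to 24.2%, 4 to 7 outlying genes, an R of 0.075 to 0.186 and a coordination of 0.05 to 0.211. Low counts limit 15 of the 47 genes, which had a mean count of 10 to 100. Because 91 genes of simple structure are few, classes of exons or distance rest on as few as 8 genes in use.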
